A study of Homo sapiens with 16 samples.

Results

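The MYC and MAX network factors are 10 genes of 1 family of paired DNA-binding proteins: MYC, MYCL, MAX, MXD1, MXD3, MXD4, MXI1, MNT, MGA and MLX. They were picked by gene symbol, with earlier results of these data known. All 10 were present among the 28167 symbols of the expression table, each on 1 row. Their mRNA was read by RNA-seq in SNU719 and YCC10, established gastric cancer cell lines that carry Epstein-Barr virus, in 16 libraries that form 12 groups in 3 sets. In the MYB set, cells labelled WT received the control siRNA siCtrl and cells labelled MYB knockdown received siMYB (n = 2 libraries per group and line). In the TCF7 set, siCtrl was compared with siTCF7, labelled TCF7 knockdown (n = 1 per group and line). In the CRISPRi set, in which a Cas9 that does not cut is guided to DNA to silence it, the control guide sgCtrl was compared with the guide sgMYB-E3, labelled MYB knockdown (n = 1 per group and line). All groups of a line shared its medium, each set had its own controls, and no time after transfection is given in the sources used here. MYB is a DNA-binding activator of progenitor cell genes, and TCF7 is one of the factors through which beta-catenin acts in WNT signalling.

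Proteins of this network bind DNA as pairs. MYC and MYCL pair with MAX at E-boxes, short palindromic DNA elements, and activate genes of growth, ribosome production and metabolism, while the MXD proteins (MXD1, MXD3, MXD4 and MXI1), MNT and MGA pair with the same MAX and repress through corepressor complexes. MLX is a second hub that pairs with the glucose-sensing Mondo proteins and with some of the repressors. In gastrointestinal cancers MYC is a well-known target of WNT signalling, and several MXD genes are known for rising as cells leave the cycle and differentiate.

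The values are FPKM, which divide a gene's fragments by its transcript length and by the size of the library, so they can be compared between genes, but the sequencing depth behind them is unknown. Total FPKM ran from 530695 to 1360018 per library, so the scale can differ between libraries. Between 11176 and 12085 genes reached 1 FPKM per library. The gastric epithelial markers matched the labels (EPCAM 314.5 to 870.8 FPKM, KRT8 1331 to 5593 FPKM), and 13 markers of leukocytes, fibroblasts and endothelium stayed between 0 and 0.7254 FPKM. MYB itself was at 9.664 and 8.452 FPKM with siMYB in SNU719 against 45.67 and 44.22 with siCtrl. In YCC10 it was at 1.948 and 1.427 against 29.36 and 27.34 FPKM. With sgMYB-E3 it was at 18.34 against 47.64 FPKM in SNU719 and 12.33 against 21.11 in YCC10. With siTCF7, TCF7 was at 7.993 against 26.94 FPKM in SNU719 and 4.143 against 22.64 in YCC10, and MYB was lower as well (25.27 against 45.12 and 5.396 against 25.56 FPKM). Every targeted gene was thus lower in the libraries labelled as its knockdown. With siMYB, MYB fell further in YCC10 than in SNU719 (log2 of FPKM + 1, YCC10 minus SNU719 -1.26, limma adjusted p = 0.00671). Over both lines MYB also fell further with siMYB than with sgMYB-E3 (-1.79). Comparisons of these lines and agents below are therefore not made at equal loss of MYB. Nothing in the labels says that libraries of 1 group came from separate cultures, so p-values measure only the spread between these libraries, which may be technical. In bulk RNA, fewer cells of a kind and less RNA per cell cannot be told apart.

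In control cells, MYC and MAX stood at the top of the network in both lines, MLX followed, and the repressors were several times lower. MYC, the activator, had 38.89 to 51.72 FPKM over the 4 control libraries of SNU719 (mean 44.99 ± 6.952 SD) and 37.15 to 66.29 in YCC10 (52.52 ± 13.96). MAX, the shared partner, had 36.84 to 45.69 FPKM in SNU719 (43.04 ± 4.152) and 29.66 to 37.53 in YCC10 (33.77 ± 3.574). The ranges of MYC and MAX overlapped in each line. MLX had 19.82 to 26.4 FPKM in SNU719 and 20.32 to 26.43 in YCC10, below every MAX value of the same line. Among the repressors, the order of the means in SNU719 was MXD1 (7.062 FPKM), MXD4 (6.426), MXI1 (5.411), MXD3 (4.686) and MNT (3.41), and each neighbouring pair overlapped in range. In YCC10 the order was MXD3 and MXI1 (6.836 and 6.837 FPKM), MXD1 (4.571), MXD4 (3.078) and MNT (2.476). There the MXD4 range of 1.306 to 3.941 FPKM ended just below the MXD1 range of 4.053 to 5.084, and the other neighbours overlapped. MYCL, a relative of MYC best known from neuroendocrine tumours, had 1.076 to 2.132 FPKM in the SNU719 controls and was listed at 0 in every YCC10 library. MGA, a very large repressor that joins a Polycomb complex, was listed between 0 and 0.115 FPKM in all 16 libraries. A listed 0 can be a failed estimate here, since 810 genes were at 0 in some library and above 5 FPKM in another. MYCL and MGA were below a mean of 1 FPKM over the libraries of each fit and were not tested in the main fits. This left 8 of the 10 members in each of those tests.

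**Figure D1:**
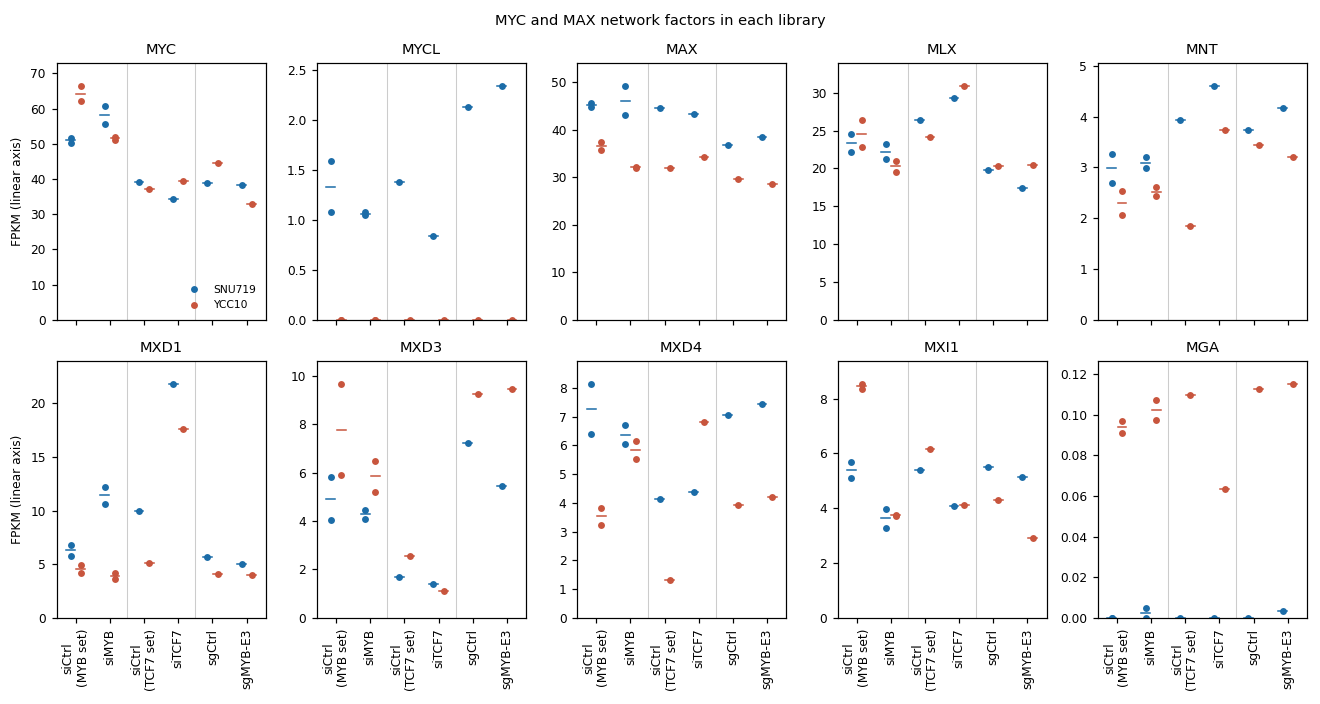
FPKM of each of the 10 network factors (vertical axes, linear and starting at 0) in every library, by group (horizontal axis), with SNU719 in blue and YCC10 in red. Points are libraries, short lines are group means, and grey lines part the 3 sets. MXD1 is at 21.76 and 17.61 FPKM in the siTCF7 libraries, above the other 14 libraries, and the siMYB libraries of both lines lie below their siCtrl libraries for MXI1.

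Levels also differed between the sets before any knockdown. MXD3, a repressor linked to S phase, had 1.692 and 2.567 FPKM in the TCF7-set controls of SNU719 and YCC10, against 4.034 to 9.643 in the other 6 controls. MYC had 39.09 and 37.15 FPKM in the TCF7-set controls and 50.25 to 66.29 in the 4 controls of the MYB set. An effect is therefore read only against the control of its own set and line. Ranks over all libraries, given below, are descriptive, since they mix differences of sets and lines with those of the knockdowns. Between the lines, tested in the 8 controls with the set as a term, 3 of the 8 tested members passed an adjusted p of 0.05, against 64% of all 12187 genes tested, and all 3 were lower in YCC10. MXD4, a repressor of quiescent and differentiating cells, gave -0.90 (log2 of FPKM + 1, YCC10 minus SNU719, SE 0.108, limma adjusted p = 0.000593). MXD1 gave -0.51 (SE 0.108, adjusted p = 0.00662) and MAX -0.34 (SE 0.0513, adjusted p = 0.00152). Each of the 3 calls held in every alternative setting tried. MXD3 (0.46, adjusted p = 0.0505), MNT (-0.36, 0.0551), MYC (0.19, 0.0749), MXI1 (0.25, 0.193) and MLX (0.01, 0.875) did not pass. MXD3 passed in 6 of 17 alternatives, namely at both other pseudocounts, after both scalings, without YCC10 siCtrl 1 and with the replicate block for each line and number (adjusted p = 0.00322 to 0.0457). MYC passed in 3 (0.0123 to 0.0431), namely after median-of-ratios scaling and without either TCF7-set control. MXI1 passed in 2 (0.0179 and 0.0183), without either CRISPRi-set control.

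MYC is on chr8:127735434-127741434 (GRCh38, plus strand). With siMYB it had 60.75 and 55.49 FPKM in SNU719 against 50.25 and 51.72 with siCtrl. In YCC10 it had 51.14 and 51.98 against 62.19 and 66.29. The siMYB libraries were thus above both controls in SNU719 and below both in YCC10. The log2 difference was 0.18 in SNU719 (SE 0.0628, limma adjusted p = 0.0895) and -0.31 in YCC10 (SE 0.0628, adjusted p = 0.011). The YCC10 call depended on the scaling: the value was -0.19 after median-of-ratios scaling (adjusted p = 0.0657) and -0.18 after quantile normalization (adjusted p = 0.135). It was also lost without siCtrl 2 (0.0576) or siMYB 1 (0.0544) of YCC10. The 2 effects differed from each other (YCC10 minus SNU719 -0.50, SE 0.0889, adjusted p = 0.0178), a call lost after quantile normalization (0.0595) and without any 1 of 5 libraries: SNU719 siCtrl 1 or siCtrl 2, or YCC10 siCtrl 2, siMYB 1 or siMYB 2 (0.0538 to 0.0592). Over both lines together siMYB gave -0.06 (adjusted p = 0.681). With siTCF7, MYC was at 34.39 against 39.09 FPKM in SNU719 and 39.48 against 37.15 in YCC10 (shared effect -0.05, 95% interval -0.29 to 0.19, adjusted p = 0.774). With sgMYB-E3 it was at 38.21 against 38.89 FPKM in SNU719 and 32.95 against 44.45 in YCC10 (-0.22, interval -0.46 to 0.02, adjusted p = 1). The siMYB effect in YCC10 was the one that passed with the values as deposited, whereas after median-of-ratios scaling it was the one in SNU719 (0.26, adjusted p = 0.0406).

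MYCL had 1.076 and 1.051 FPKM with siMYB in SNU719 against 1.076 and 1.585 with siCtrl, and 0.8397 against 1.375 with siTCF7. With sgMYB-E3 it was at 2.336 against 2.132 FPKM. These ranges overlapped in the MYB set, and the other sets have 1 library per group. MAX (chr14:65006174-65102695, minus strand) had 49.17 and 43.11 FPKM with siMYB in SNU719 against 44.9 and 45.69, and 32.03 and 32.22 in YCC10 against 35.85 and 37.53. The groups overlapped in SNU719 and were apart in YCC10. There the difference of -0.19 did not pass (adjusted p = 0.0855), but did without SNU719 siMYB 1 (0.0365) or siMYB 2 (0.0363). Its other knockdown effects did not pass (0.02 with siMYB in SNU719; 0.03 with siTCF7, interval -0.14 to 0.20; 0.01 with sgMYB-E3, interval -0.16 to 0.18).

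With siTCF7, and with siMYB in SNU719, MXD1 rose and MXI1 fell. MXD1 encodes MAD1, the founding MYC antagonist, and is transcribed from chr2:69897688-69942945 (plus strand). The promoters of MXD1, MXI1 and MXD4 are shown because the siMYB calls among the repressors fell on these 3 genes. Each window holds 250 bases before and 50 after a RefSeq gene start (GRCh38.p14), read 5′ to 3′ on the gene's strand. Capitals mark matches, on either strand, to the E-box CACGTG, to the MYB motif TAACNG or CAACNG, or to the TCF/LEF motif CTTTGA. The windows are chr2:69914859-69915158 (MXD1, plus strand), chr10:110207355-110207654 and chr10:110209981-110210280 (2 of the 3 MXI1 starts, plus strand) and chr4:2262060-2262359 (MXD4, minus strand).
MXD1: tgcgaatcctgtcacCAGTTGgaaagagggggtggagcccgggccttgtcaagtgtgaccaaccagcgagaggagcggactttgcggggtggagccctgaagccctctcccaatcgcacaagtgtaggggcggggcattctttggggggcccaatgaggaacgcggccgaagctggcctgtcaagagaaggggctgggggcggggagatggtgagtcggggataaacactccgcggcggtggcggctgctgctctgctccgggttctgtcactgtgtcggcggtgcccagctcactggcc
MXI1 first start: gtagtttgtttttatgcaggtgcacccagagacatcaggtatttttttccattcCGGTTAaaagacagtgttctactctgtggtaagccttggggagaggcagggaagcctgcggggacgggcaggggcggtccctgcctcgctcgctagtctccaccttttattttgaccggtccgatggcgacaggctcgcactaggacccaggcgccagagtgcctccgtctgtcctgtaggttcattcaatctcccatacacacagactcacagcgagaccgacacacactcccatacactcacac
MXI1 second start: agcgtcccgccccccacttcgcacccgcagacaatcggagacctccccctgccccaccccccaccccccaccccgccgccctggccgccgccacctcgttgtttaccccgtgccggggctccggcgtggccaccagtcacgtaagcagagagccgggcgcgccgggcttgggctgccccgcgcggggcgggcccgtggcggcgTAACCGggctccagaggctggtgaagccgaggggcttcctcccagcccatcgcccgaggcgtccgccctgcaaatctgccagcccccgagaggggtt
MXD4: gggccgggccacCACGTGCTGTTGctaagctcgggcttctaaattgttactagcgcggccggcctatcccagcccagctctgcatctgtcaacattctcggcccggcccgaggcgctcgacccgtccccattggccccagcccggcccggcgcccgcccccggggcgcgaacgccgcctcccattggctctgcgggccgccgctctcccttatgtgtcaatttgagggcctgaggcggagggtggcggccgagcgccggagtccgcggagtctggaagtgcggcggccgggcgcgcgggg
MXD1 held 1 MYB motif, CAGTTG as read on this strand, at position -235, counted with the start base as 1. The first MXI1 window held CGGTTA at -196, the second TAACCG at -47, and the third start none of these motifs. MXD4 held an E-box at -238 followed without a gap by CTGTTG, a MYB motif, at -232. Of all 35116 RefSeq windows of this length, 46.2% held a MYB motif, 7.26% an E-box and 12.9% a TCF/LEF motif. Of the 14 windows of 9 members, 6 held a MYB motif, 3 an E-box (MXD4, MNT and MLX) and 1 a TCF/LEF motif (MXD3). These matches are letters in a window, and binding was not measured.

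MXD1 rose in both lines when TCF7 was lowered, and with siMYB in SNU719. With siTCF7 it had 21.76 against 9.937 FPKM in SNU719 and 17.61 against 5.084 in YCC10. Both siTCF7 libraries were above all 14 others. The shared effect was 1.34 on the log2 scale (SE 0.144, 95% interval 1.00 to 1.67, limma adjusted p = 0.00264). It stayed past the threshold in each of 25 alternatives (adjusted p 0.000528 to 0.0183), with 1.06 where only SNU719 informs it and 1.61 where only YCC10 does. Alternatives that leave out a library of another set change only the spread of this effect and not its value, so they are weak checks. With siMYB, MXD1 had 12.15 and 10.65 FPKM in SNU719 against 6.825 and 5.791, groups that do not overlap. The log2 difference was 0.76 (SE 0.118, adjusted p = 0.00894), and this call was narrowly lost without SNU719 siCtrl 2 (0.0533) or siMYB 1 (0.0549). In YCC10, MXD1 had 4.169 and 3.657 FPKM with siMYB against 4.967 and 4.18, a difference of -0.18 that did not pass (adjusted p = 0.273) but did with the replicate block (0.024). The effect in YCC10 was lower than in SNU719 by a test of the difference itself (-0.94, SE 0.166, adjusted p = 0.0168), a call lost without SNU719 siCtrl 2 or siMYB 1, or YCC10 siCtrl 1 or siMYB 2 (0.0575 to 0.0595). The mean siMYB effect was also smaller than the siTCF7 effect (-1.04, SE 0.177, adjusted p = 0.0103; 0.00309 to 0.0478 over the alternatives). With sgMYB-E3, MXD1 was at 5.019 against 5.697 FPKM in SNU719 and 3.955 against 4.053 in YCC10 (-0.09, interval -0.42 to 0.24).

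MXI1 encodes a MAD family repressor, also called MAD2, on chr10:110207605-110287365. It fell with siMYB in both lines and with siTCF7. With siMYB it had 3.984 and 3.283 FPKM in SNU719 against 5.68 and 5.099 with siCtrl. In YCC10 it had 3.764 and 3.718 against 8.519 and 8.361. The groups did not overlap in either line, and the siMYB ranges of the lines overlapped while their siCtrl ranges did not. Over both lines the difference was -0.73 (SE 0.119, limma adjusted p = 0.00681), and it passed in each of 18 alternatives (0.00582 to 0.0264). It was -0.47 in SNU719 (SE 0.0885, adjusted p = 0.0169) and -0.99 in YCC10 (SE 0.0885, adjusted p = 0.000779). The SNU719 call was lost without siCtrl 1 (0.086), siCtrl 2 (0.0518) or siMYB 2 (0.059) of that line, and the YCC10 call held in each of 18 alternatives. The difference between the lines (-0.53, adjusted p = 0.0381) was lost in 11 of 18 alternatives (up to 0.117). These 11 were a mean filter of 5 FPKM, no filter, both scalings, and leaving out any 1 of the 8 libraries except SNU719 siMYB 2. With siTCF7, MXI1 had 4.08 against 5.376 FPKM in SNU719 and 4.117 against 6.17 in YCC10, a shared effect of -0.41 (SE 0.106, adjusted p = 0.0282). Leaving out the siCtrl or the siTCF7 library of YCC10 ended that call (-0.33, adjusted p = 0.27), as did having no filter on low values (0.0598). With sgMYB-E3, MXI1 had 5.152 against 5.489 FPKM in SNU719 and 2.923 against 4.3 in YCC10 (-0.26, interval -0.50 to -0.01, adjusted p = 1). MXI1 was lower than its own control in each of the 6 pairs of line and agent, though only slightly with sgMYB-E3 in SNU719 (93.86% of control). The siTCF7 and sgMYB-E3 pairs hold 1 library per group. How many of all genes were lower in all 6 pairs was not counted. The siMYB effect on MXI1 was not shown to differ from that of sgMYB-E3 (-0.47, adjusted p = 0.0587) or of siTCF7 (-0.32, adjusted p = 0.14). Without any 1 TCF7-set library the first of these passed (0.0465 to 0.0468).

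MXD4, on chr4:2247432-2262294 (minus strand), moved in YCC10, the line in which its control level was lower. With siMYB it had 5.527 and 6.135 FPKM in YCC10 against 3.237 and 3.829, and 6.706 and 6.041 in SNU719 against 6.403 and 8.123. The groups were apart in YCC10 and overlapped in SNU719. The difference was 0.59 in YCC10 (SE 0.126, limma adjusted p = 0.0131), lost without siCtrl 1 (0.0728) or siMYB 2 (0.0682) of that line, and -0.16 in SNU719 (adjusted p = 0.417). The lines differed by 0.75 (SE 0.178, adjusted p = 0.0381), a call lost in 8 of 18 alternatives (0.0595 to 0.118): with no filter and without any 1 of 7 libraries, all but SNU719 siCtrl 1. With siTCF7, MXD4 had 6.805 against 1.306 FPKM in YCC10 and 4.394 against 4.137 in SNU719. The shared effect of 0.91 (SE 0.32) did not pass (adjusted p = 0.0718). The value was 1.76 where only YCC10 informs it (adjusted p = 0.000465) and 0.07 where only SNU719 does. Each of these rests on 1 library per group and on the spread of the other libraries. The YCC10 control of the TCF7 set was the lowest of all 16 libraries for MXD4. With sgMYB-E3, MXD4 had 7.45 against 7.04 FPKM in SNU719 and 4.193 against 3.941 in YCC10.

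MNT, a broadly expressed repressor that balances MYC in resting and cycling cells alike, had 4.594 against 3.938 FPKM with siTCF7 in SNU719 and 3.737 against 1.847 in YCC10. The shared effect of 0.46 (SE 0.141) passed narrowly (limma adjusted p = 0.0496) and was lost in 18 of 24 alternatives. These include the replicate block for each line and number, and leaving out any 1 library other than the TCF7-set libraries of SNU719. Without either YCC10 library of that set the value was 0.18. With siMYB, MNT had 2.987 and 3.198 FPKM in SNU719 against 2.701 and 3.269, and 2.429 and 2.618 in YCC10 against 2.072 and 2.544, overlapping ranges in each line. MXD3 had 4.094 and 4.449 FPKM with siMYB in SNU719 against 4.034 and 5.796, and 5.208 and 6.47 in YCC10 against 5.905 and 9.643. With siTCF7 it had 1.409 against 1.692 FPKM in SNU719 and 1.089 against 2.567 in YCC10 (-0.47, interval -1.03 to 0.10, adjusted p = 0.196). MXD3 did not pass in any knockdown comparison, where its SE was 0.163 to 0.343.

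MLX (chr17:42567068-42573239, plus strand), the hub of the Mondo branch, had 29.36 against 26.4 FPKM with siTCF7 in SNU719 and 30.84 against 24.22 in YCC10. The shared effect was 0.24 (adjusted p = 0.102) and passed after quantile normalization (0.0320). With siMYB it had 21.23 and 23.17 FPKM in SNU719 against 22.2 and 24.5, and 19.57 and 20.97 in YCC10 against 22.79 and 26.43. The YCC10 groups did not overlap, and the difference of -0.27 (adjusted p = 0.0701) passed with the replicate block (0.00954). The difference between the lines in the siMYB effect (-0.20, limma adjusted p = 0.363) passed with the replicate block shared by all groups (0.0404). The siMYB and siTCF7 effects on MLX differed by -0.41 (adjusted p = 0.0597), which passed with the replicate block (0.0346), after quantile normalization (0.0424) and without either SNU719 library of the TCF7 set (0.0472 and 0.0473). With sgMYB-E3, MLX was at 17.46 against 19.82 FPKM in SNU719 and 20.4 against 20.32 in YCC10. MGA stayed at or below 0.115 FPKM in every knockdown.

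Counted over the family, 2 of the 8 tested members passed with siMYB in SNU719 (MXD1 higher, MXI1 lower), where 22.6% of all 12095 genes tested did. In YCC10 3 of 8 passed (MXD4 higher, MXI1 and MYC lower), where 41.8% of genes did. Over both lines 1 of 8 passed (MXI1), against 29.4% of genes, and 4 of 8 differed between the lines in the siMYB effect (MYC, MXD1, MXD4 and MXI1), against 19% of genes. With siTCF7 3 of 8 passed (MXD1 and MNT higher, MXI1 lower), against 24.6% of 12290 genes. With sgMYB-E3 0 of 8 passed by limma, 1 (MXI1) at an unadjusted p under 0.05 (0.0425). Of all genes 0.0325% passed with that guide, which is 4 genes, and 461 had an unadjusted p under 0.05. The siMYB effect differed from the sgMYB-E3 effect for 0 of 8 members (9.25% of genes; 1 member, MXI1, at an unadjusted 0.0065) and from the siTCF7 effect for 1 of 8 (MXD1; 13.2% of genes). Except for the line difference and siTCF7, the members' shares were near or below those of all genes. For the line difference, the share of all genes depended on the fit. The replicate block for each line and number called 4352 genes, against 2297 in the main fit, and changed no member's call. For siTCF7, 1 of the 3 calls was MNT, which was lost in 18 of 24 alternatives. The line difference fell to 0 of 8 without SNU719 siCtrl 2 or YCC10 siMYB 2. With siTCF7, leaving out either YCC10 library of its set left 1 of 8, MXD1. For siMYB the balance of higher and lower calls over all genes depended on the scaling: 35.5% of calls were higher in SNU719, against 51.1% after median-of-ratios scaling and 47.1% after quantile normalization. In YCC10 the share was 36.6%, against 53.5% and 50.3%, and over both lines 29.8%, against 51.5% and 46.4%. It was 45.5%, against 55% and 56.9%, for the line difference, 31%, against 54.5% and 51.7%, beside sgMYB-E3, and 30.9%, against 48.7% and 45.9%, beside siTCF7.

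**Figure D2:**
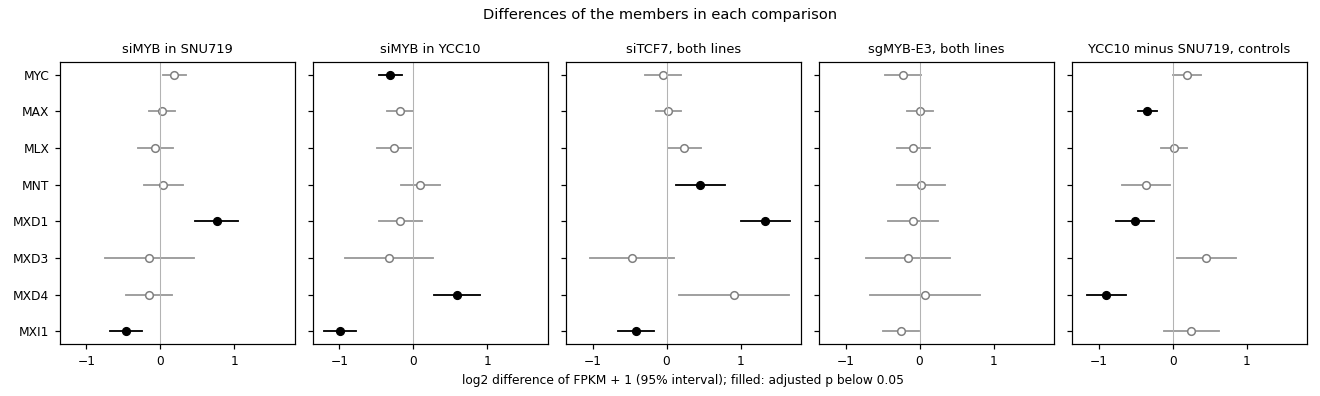
Log2 difference of FPKM + 1 (horizontal axis) with its 95% interval from limma for the 8 tested members (vertical axis) in 5 comparisons. Filled points passed an adjusted p of 0.05. MXI1 lies left of 0 in all 4 knockdown panels and filled in 3, and MXD1 reaches 1.34 with siTCF7 while MYC and MAX lie near 0 there.

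The sum of MYC and MYCL over the sum of MXD1, MXD3, MXD4, MXI1 and MNT describes the balance of activators and repressors in mRNA, with no test. In SNU719 it was 1.613 in the TCF7-set control and 0.972 with siTCF7, and in YCC10 2.188 and 1.183. The summed repressors were at 36.24 against 25.08 FPKM in SNU719 and 33.36 against 16.97 in YCC10, while the activators were at 35.22 against 40.46 and 39.48 against 37.15. The siTCF7 libraries thus had lower ratios than their own controls, with more repressor mRNA in each line, and with activator mRNA lower in SNU719 and higher in YCC10. They were also the 2 lowest ratios of all 16, though the controls alone ran from 1.406 to 2.518 over sets and lines. Without MXD1 the repressors summed to 14.48 against 15.14 FPKM in SNU719 and 15.75 against 11.89 in YCC10, so in SNU719 the higher sum is that of MXD1. In the MYB set the ratio was 2.002 and 1.899 with siCtrl and 2.066 and 2.047 with siMYB in SNU719, and 2.518 and 2.321 against 2.424 and 2.3 in YCC10. The siMYB range lay just above the siCtrl range in SNU719 and overlapped it in YCC10. With sgMYB-E3 it was 1.489 against 1.406 in SNU719 and 1.39 against 1.781 in YCC10. mRNA ratios do not give protein or binding, which were not measured.

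**Figure D3:**
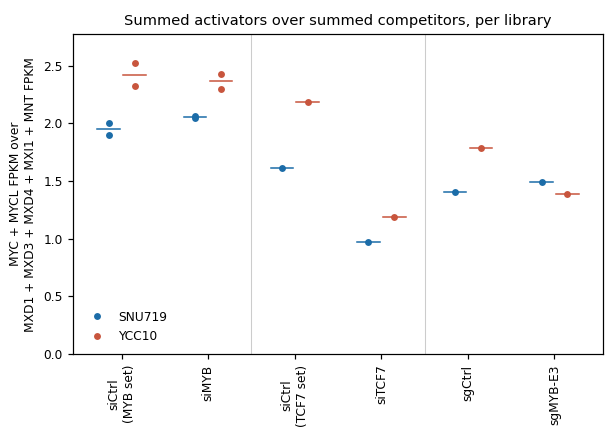
Ratio of summed MYC and MYCL FPKM to summed MXD1, MXD3, MXD4, MXI1 and MNT FPKM (vertical axis, starting at 0) in each library, by group and line. Points are libraries and short lines group means. The siTCF7 libraries sit at 0.972 and 1.183, below every other library, and the MYB-set libraries between 1.899 and 2.518 with or without siMYB.

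Many genes that MYC is known to induce fell with both siRNAs. Of 48 tested genes of this kind, 26 fell and 0 rose with siMYB over both lines (median -0.30, against -0.07 for all genes). Of all 12095 genes, 2501 fell and 1060 rose (29.4% called), against 1485 and 1577 after median-of-ratios scaling and 1560 and 1348 after quantile normalization. The count of induced genes that fell was 15 after median-of-ratios scaling, 16 after quantile normalization and 20 with the replicate block. RCC1, a chromatin-bound exchange factor (-0.81, limma adjusted p = 0.00639), LDHA, the lactate dehydrogenase of glycolysis (-0.71, 0.00669), the nucleolar chaperone NPM1 (-0.54, 0.0118) and the ribosomal RNA factor TCOF1 (-0.54, 0.0238) led them. Within SNU719, 11 fell and 2 rose with siMYB (27.1% called, against 22.6% of all genes, median -0.16). In YCC10, 30 fell and 1 rose (64.6% called, against 41.8%, median -0.39). The siMYB effect was lower in YCC10 than in SNU719 for 12 of the 48 and higher for 0 (25% called, against 19%). With siTCF7 23 of 48 fell and 0 rose (median -0.27, against 0.00), where 1621 of all 12290 genes fell and 1407 rose (24.6% called), led by TCOF1 (-1.69, adjusted p = 0.00608), ODC1, which starts polyamine synthesis (-1.13, 0.0131), SRM, the spermidine synthase (-0.79, 0.00933), and the nucleolar protein NCL (-0.79, 0.0138). With sgMYB-E3 0 of 48 passed (median -0.01). All 4 proliferation markers (MKI67, TOP2A, PCNA and MCM2) fell alongside, by medians of -0.51 with siMYB and -1.14 with siTCF7, and their part in these results was not tested. Their summed level was 182.8 against 618.5 FPKM with siTCF7 in YCC10 and 391.7 against 543.7 in SNU719. Of 6 tested genes that MYC is known to repress, CDKN1A, the cell cycle inhibitor p21, rose with siMYB (0.57, adjusted p = 0.00363) and siTCF7 (0.54, 0.0215). NDRG1, a stress-response gene, rose with siTCF7 (0.43, 0.0231). NDRG2, a relative of it, fell with both (-0.79, 0.015 and -0.40, 0.0413), and CEBPA, a differentiation factor, fell with siMYB (-0.46, 0.0196), so the list split in direction.

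Calls among the partners of the repressors were toward lower levels. So were 2501 of the 3561 calls over all genes with siMYB and 1621 of 3028 with siTCF7. Of 15 genes of the SIN3 corepressor, which MXD proteins and MNT recruit, 7 fell and 0 rose with siMYB over both lines, led by ING1 (-0.58, limma adjusted p = 0.0165), HDAC1 (-0.46, 0.00911), SAP30 (-0.42, 0.0119) and HDAC2 (-0.36, 0.0423). With siTCF7 6 fell and 0 rose, led by SAP30 (-0.87, 0.00633), SUDS3 (-0.86, 0.0124), RBBP4 (-0.47, 0.0242) and HDAC2 (-0.45, 0.0091). After median-of-ratios scaling 5 fell with each siRNA, and after quantile normalization 4. Of 10 partners of MGA in its Polycomb complex 4 fell with siMYB, TFDP1 (-0.56, 0.00267), PCGF6 (-0.42, 0.00638), L3MBTL2 (-0.32, 0.0108) and RNF2 (-0.31, 0.0281), and 2 with siTCF7, TFDP1 (-0.63, 0.0161) and CBX1 (-0.33, 0.0128). Both scalings gave 3 and 2. Of 12 coactivators of MYC, 4 fell and 1 rose with siMYB, and 5 fell and 1 rose with siTCF7. With siMYB both scalings gave 3 lower and 2 higher, and turned the list's median from -0.07 to 0.03 and 0.01. The one that rose with siMYB was CDK9, the elongation kinase (0.44, 0.00259), and with siTCF7 KAT5, an acetyltransferase (0.49, 0.0216). ACTL6A (-0.39, 0.0402 and -0.33, 0.024) and RUVBL2 (-0.38, 0.0119 and -0.32, 0.0432) fell with both, KAT2A with siMYB (-0.35, 0.0142) and RUVBL1 with siTCF7 (-0.50, 0.0171). Among 11 regulators of MYC protein turnover 5 fell and 0 rose with each siRNA (with siMYB, 2 after either scaling), with the ubiquitin ligase subunit SKP2 at -0.82 (0.00105) and -1.07 (0.0101) and the kinase AURKA at -0.47 (0.00217) and -0.90 (0.017). CIP2A fell with siMYB (-0.40, 0.0276), USP28 with both (-0.20, 0.0221 and -0.55, 0.0125) and USP36 with siTCF7 (-0.29, 0.0261). Among regulators of MYC transcription or mRNA, FUBP1, which binds DNA upstream of MYC, fell with siMYB (-0.45, 0.0125). With siTCF7 FUBP1 (-0.38, 0.0309) and CTCF (-0.32, 0.011) fell and the mRNA-binding IGF2BP3 rose (0.34, 0.0428). With sgMYB-E3 none of these 5 lists had a call. These lists share the background shares given above, 29.4% with siMYB over both lines and 24.6% with siTCF7. The shares called with siMYB and siTCF7 were 46.7% and 40% for the SIN3 genes and 40% and 20% for the MGA partners. They were 41.7% and 50% for the coactivators, and 45.5% with each siRNA for the turnover regulators.

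**Figure D4:**
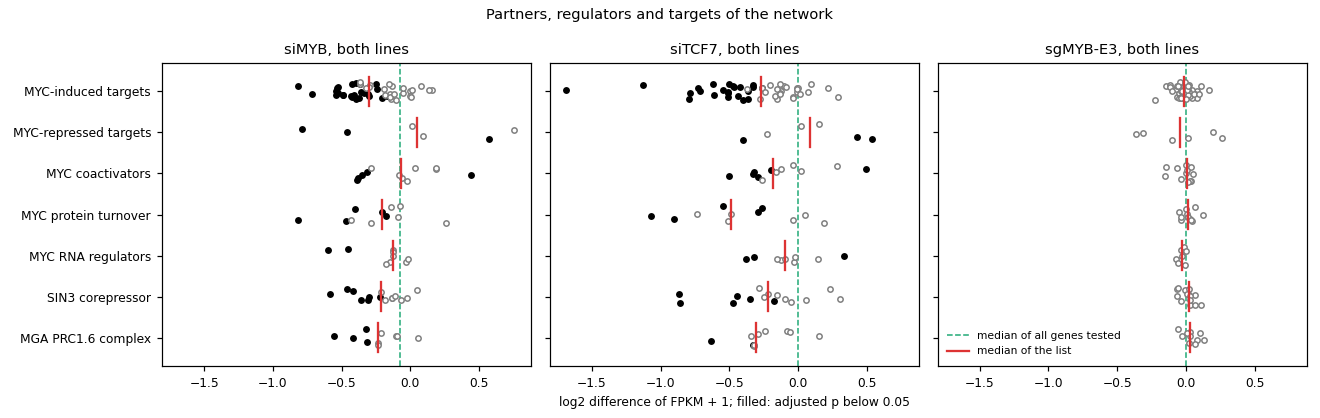
Log2 difference of FPKM + 1 (horizontal axis) of each tested gene in 7 lists around the network (vertical axis) with siMYB, siTCF7 and sgMYB-E3 over both lines. Filled points passed an adjusted p of 0.05, red lines are list medians and the dashed line is the median of all genes tested. MYC-induced targets have medians of -0.30 with siMYB and -0.27 with siTCF7, and -0.01 with sgMYB-E3.

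For each tested member, the 3 genes whose pattern was most like it were sought among 12290 genes over 16 libraries, as a Pearson correlation of log2(FPKM + 1) after subtracting the mean control of the same line and set. Single controls are 0 by this step, so a few knockdown libraries carry each value. MXI1 was most like RIOX2 (r = 0.992), C17orf75 (0.969) and LARP1 (0.969). MXD1 was most like TMEM68 (0.980), TMC7 (0.977) and CACNG8 (0.968), and MXD4 like ELMO2 (0.982), PRKCZ (0.977) and SNX33 (0.975). MNT was most like ZFAND2A (0.970), GRINA (0.969) and CLCN7 (0.960), and MLX like LRWD1 (0.957), RRP7A (0.957) and CHMP4A (0.948). For MXD3 they were MTSS2 (0.947), GBA2 (0.935) and POLR2F (0.914), and for MAX BMP2 (0.919), MPI (0.917) and TIMM23B (0.902). MYC had the least alike neighbours, FBXL4 (0.879), FAM83H-AS1 (0.859) and SETD5 (0.853).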

How the data were processed

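Polyadenylated RNA (TruSeq Stranded mRNA, per the labels' protocols) was sequenced in 16 libraries. The submitters' processing notes name bcl2fastq 2.20.0, HISAT2 2.1.0, Cufflinks 2.2.1 and the build hg38, without settings or annotation. The authors deposited FPKM and no fragment counts, so depth and counting error are unknown. Rows of 1 symbol were summed (2097 of 28167 symbols, none of them a member).

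Tests used limma 3.58.1 in R 4.3.3 (lmFit, eBayes with an intensity trend) on log2(FPKM + 1) of genes averaging 1 FPKM or more in the fit, with Benjamini-Hochberg adjustment over all of them and a threshold of 0.05. This scale understates changes of low genes. For siMYB within a line, the MYB set had 1 mean per group (4 residual degrees of freedom), and over both lines the line was a covariate (5). The effects of siTCF7 and sgMYB-E3 are shared by both lines in 1 fit of the 16 libraries, which has a term per line and set (6). Its spread reflects the replicates of the MYB set and any line difference of these effects. Single libraries are assumed to vary as those of the MYB set do. Controls were compared with the set as covariate (4). The fit was also run on simulated data with independent noise per library and the same change in both lines. That run could not test replicate pairing or changes that differ between lines.

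Replicate numbers paired the MYB-set libraries: replicate differences of 2 groups correlated, over 12095 genes, at 0.342 and 0.438 in the same line and at 0.326 to 0.411 between lines. The main fits do not model this pairing, so their calls for siMYB can differ from those with a block. A replicate block is given where it changed a member's call. Alternatives were pseudocounts of 0.1 and 0.5, no filter or a filter of 5 FPKM, median-of-ratios scaling, quantile normalization, the largest row per symbol, no trend, 2 replicate blocks, and each library left out. Members and the 14 gene lists were chosen with earlier results of these data known. All 10 members are named in every comparison, with up to 4 called genes of largest change per other list, and lists of 3 or fewer in full. One gene that this rule names is not reported here. Loci are from GENCODE 29 and promoter windows of 9 members from a RefSeq table (GRCh38.p14); a window of MYC was not used here.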

Additional observations from a re-analysis of the deposited data

Results flagged for a closer look

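MAX had 36.84 FPKM in the SNU719 sgCtrl library, far below the other 3 SNU719 controls (44.73 to 45.69 FPKM), whose own spread was small. Chance alone marks about 1 in 20 such groups, and the rule was applied to every member in each line. The controls of a line also come from 3 sets, whose differences that rate does not allow for. The marked MAX library is the control of the sgMYB-E3 comparison in SNU719, where MAX had 38.55 FPKM with sgMYB-E3. In YCC10 the CRISPRi-set libraries were also the lowest for MAX (29.66 and 28.62 FPKM).

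The siMYB effect differed between the lines for 4 members by a limma test of the difference, YCC10 minus SNU719: MXD1 (-0.944), MXD4 (0.751), MXI1 (-0.527) and MYC (-0.495). Each of these calls was lost in some alternative. MYB itself also fell further in YCC10 (-1.261), and its part in these differences was not tested.

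In single libraries, where the difference between the lines was not tested, log2 differences had opposite signs for several members. With siTCF7 these were MYC (-0.180 in SNU719, 0.086 in YCC10) and MAX (-0.042 and 0.094). With sgMYB-E3 they were MAX (0.064 and -0.050), MXD3 (-0.351 and 0.029), MNT (0.125 and -0.081) and MLX (-0.174 and 0.005).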

How the results depend on the processing

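Of the member values under an alternative, 1352 kept direction and call, 61 lost the call, 34 gained it and 55 changed sign. Many of these are not separate checks, since leaving out a library from outside a comparison changes its spread and not its value. For siTCF7 and sgMYB-E3, leaving out a control or its knockdown gave the same value. The 2 alternatives of the balance ratio, the largest row per symbol and adding MGA, could hardly change it, since members have 1 row each and MGA is near 0. No member past the threshold in the main result changed sign. The cause of a change was not tested. The replicate block for each line and number moved the genes called to 4856 (from 2737) for siMYB in SNU719 and to 4352 (from 2297) for the line difference, and the members called to 5 for siMYB in YCC10 and to 2 for siMYB beside siTCF7. The replicate block shared by all groups gave 5269 and 4750 genes and 5 members. With no filter, members called were 2 for the line difference, 1 for siTCF7 and 5 between lines in controls. MYCL and MGA were also tested at this setting, and the 5 are the 3 of the main result with MYCL and MGA. Genes called with sgMYB-E3 were 8 with no filter (2 with a filter of 5 FPKM, 4 as reported). Quantile normalization gave 2 members for the line difference and 2 for siMYB beside siTCF7, and median-of-ratios scaling 5 between lines.

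Leaving out 1 library in turn gave 972 to 1418 genes and 0 to 3 members for the line difference, 1113 to 2323 genes and 0 to 2 members for siMYB in SNU719, and 1983 to 3065 genes over both lines. It gave 630 to 4307 genes and 1 to 4 members for siTCF7, 3 to 40 genes for sgMYB-E3, 150 to 2475 genes and 0 to 1 members for siMYB beside sgMYB-E3, and 982 to 3248 genes and 1 to 4 members for siMYB beside siTCF7.

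Sign changes by scaling were small. After median-of-ratios scaling they were MLX with siMYB in SNU719 (0.006), MYC and MAX with siMYB over both lines (0.037 and 0.018), MAX, MXD3 and MLX for siMYB beside sgMYB-E3 (0.010, 0.004 and 0.013) and MYC beside siTCF7 (0.054). After quantile normalization they were MYC over both lines (0.032), MXD3 and MLX beside sgMYB-E3 (0.013 and 0.013), MYC beside siTCF7 (0.060) and MLX between lines (-0.009).

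Leaving out 1 library in turn also changed signs of values that had not passed. With siMYB in SNU719 the ranges were -0.070 to 0.116 for MAX, -0.367 to 0.066 for MXD3 and -0.061 to 0.144 for MNT, in YCC10 -0.009 to 0.197 for MNT, and over both lines -0.139 to 0.004 for MYC. For the line difference they were -0.493 to 0.131 for MXD3 and -0.050 to 0.156 for MNT. With siTCF7 they were -0.180 to 0.086 for MYC and -0.042 to 0.094 for MAX. With sgMYB-E3 they were -0.050 to 0.064 for MAX, -0.351 to 0.029 for MXD3, -0.081 to 0.125 for MNT and -0.174 to 0.005 for MLX. For siMYB beside sgMYB-E3 they were -0.038 to 0.358 for MYC, -0.271 to 0.109 for MXD3, -0.057 to 0.149 for MNT and -0.173 to 0.006 for MLX. For siMYB beside siTCF7 they were -0.149 to 0.117 for MYC, -0.081 to 0.530 for MXD3 and -1.541 to 0.147 for MXD4, and between lines -0.038 to 0.059 for MLX.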

Other observations

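Genes of the Mondo branch, in which MLX pairs with MLXIP or MLXIPL, differed by line and agent. MLXIPL, the carbohydrate-response factor, had 32.73 to 50.62 FPKM as group means of SNU719 controls and 0.3289 to 0.791 in YCC10 (-4.79, limma adjusted p = 2.04e-07). MLXIPL fell with siMYB in SNU719 (-0.40, adjusted p = 0.0315) and gave 0.16 in YCC10 (0.222), a difference of 0.57 between the lines (0.0372). Every YCC10 group mean of MLXIPL was below 1 FPKM, so it passed the filter only through SNU719. A fall in YCC10 had little room to show on this scale, so this difference does not tell whether the lines respond differently. MLXIP, its ubiquitous relative, gave 0.15 with siMYB over both lines (0.108) and 0.08 with siTCF7 (0.491). TXNIP, a known target of this branch that restrains glucose uptake, rose with siMYB over both lines (1.06, SE 0.0455, adjusted p = 0.000138) and fell with siTCF7 (-1.03, SE 0.174, 0.00938), and the 2 effects differed by 2.09 (0.00182). TXNIP had 79.52 against 37.56 FPKM as siMYB and siCtrl means in SNU719 and 55.35 against 26.1 in YCC10. With siTCF7, TXNIP was at 33.95 against 52.4 FPKM in SNU719 and 12.59 against 36.09 in YCC10. KLF10, another known target, rose with siTCF7 (0.39, adjusted p = 0.00642). MYCN, the neural member of the MYC family, fell with siMYB over both lines (-0.47, adjusted p = 0.0271) at levels of 0.3156 to 3.193 FPKM in group means, and gave -0.20 with siTCF7 (0.283).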
